A study of Homo sapiens with 2 samples.

Results

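The mRNAs of the cytosolic small ribosomal subunit were examined in RNA co-precipitated with LRPPRC, a leucine-rich pentatricopeptide repeat RNA-binding protein. The 28 members were the rows of the deposited table that carry the listed names, namely RPSA, FAU and 26 RPS genes, out of 21262 rows in all, and each name had 1 row. The members are a family given by name, and the rule uses no measured value. The samples were 2 RNA immunoprecipitation (RIP) libraries of 1 condition, from wild-type A549 cells, an epithelial lung adenocarcinoma cell line, captured with an anti-LRPPRC antibody. The cells were untreated as far as the labels state. The series text calls the replicates technical and the paper calls them biological, so their spread may hold technical error alone. Values are FPKM, fragment numbers divided by transcript length and by library size, and their sums were 196627 in replicate 1 and 194839 in replicate 2. The sequencing depth is unknown. No input or IgG library was used here, so an FPKM is the level of an mRNA in the precipitate and says nothing of its enrichment over the cell, and with 1 condition no test between conditions was made. As a check of the cell type, KRT8 had 337 FPKM and KRT18 had 51.1, whereas the 7 markers of immune, endothelial and fibroblast cells with a value were all below 1 FPKM, the highest being COL1A1 at 0.696. The epithelial adhesion markers CDH1, at 1.33, and EPCAM, at 0.430, were also low.

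The small subunit of the cytosolic ribosome carries the decoding centre. Its RNA and proteins form a head, which contacts the incoming mRNA and tRNA, and a body with a platform, where the initiation factors gather. The assembled particle holds each of these proteins in a single copy, so cells need them in matched amounts. The mRNAs of ribosomal proteins begin with a 5′ terminal oligopyrimidine (TOP) motif, a cytidine at the cap followed by a run of pyrimidines, through which mTORC1 and LARP1 control their translation together. In humans, loss of 1 copy of several of these genes, RPS19 first among them, causes Diamond-Blackfan anemia. LRPPRC is best known for holding mitochondrially encoded mRNAs stable in the matrix, and it is also found in the nucleus and cytoplasm.

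The starts of these genes show a feature that the choice of members did not use. RefSeq promoters (GRCh38.p14) were matched for 25 of the 28 members, all but RPS2, RPS15A and RPS20. A TOP-like tract was searched on the transcribed strand as a C followed by at least 4 bases that are each C or T. Read from the annotated start itself, where the tract may also reach further upstream, it was present in 18 of 25 members (72%), against 4.07% of all 35116 promoters. Read from any C within 5 bases of the start, it was present in 21 of 25 (84%), against 21.1% of all promoters. The cytosolic large-subunit genes had the tract at the start in 25 of 38 (65.8%) and within 5 bases in 30 of 38 (78.9%), so this feature is common to both subunits. The windows below run from 10 bases before the annotated start to 20 bases from it on, and capitals mark the longest such pyrimidine run read from a C within 5 bases of the start. They are chosen to set the 3 highest members with a match beside low members that have the tract and members that have a shorter one.
RPS3A, chr4:151099618-151099647, plus strand: cccacttccgCCCTTTTggctctctgacca
RPSA, chr3:39406710-39406739, plus strand: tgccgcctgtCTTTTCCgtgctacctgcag
RPS24, chr10:78033853-78033882, plus strand: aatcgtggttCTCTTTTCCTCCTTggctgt
RPS21, chr20:62387093-62387122, plus strand: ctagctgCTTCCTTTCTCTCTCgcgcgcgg
FAU, chr11:65122115-65122144, minus strand: tcgcttCTTCCTCTTTCTCgactccatctt
RPS14, chr5:150449720-150449749, minus strand: ccctcccaCTCTCTCTTTCCggtgtggagt
RPS28, chr19:8321486-8321515, plus strand: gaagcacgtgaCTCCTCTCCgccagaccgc
RPS15, chr19:1438386-1438415, plus strand: aggcgcggaCCaaagcgatctcttctgagg
RPS26, chr12:56041908-56041937, plus strand: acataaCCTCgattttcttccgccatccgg
RPS24, among the highest members, had a run of 14 pyrimidines from the start on, and RPS3A and RPSA had runs of 7. RPS21, at a level near the middle of the list, had a run of 15, and RPS14, FAU and RPS28, all low, had runs of 12, 13 and 9. The members without a run of 5 near the start were RPS4X, RPS15, RPS26 and RPS29. The RefSeq start of RPS29 lies 12330 bases upstream of the start of its canonical GENCODE transcript, and the start of RPS19 differs by 149 bases, so their windows need not show the start in use. The run counted for RPS19, of 5 bases, lies wholly before its annotated start. For the other 23 members both annotations give the same base, which does not show that it is the start in use. Spearman's rho between the length of the run read from the start and the mean FPKM was 0.17 over the 25 members, given as a description.

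The levels of the small-subunit mRNAs in LRPPRC RIP were far from equal. The mean of the 2 libraries ran from 1.59 FPKM for RPS29 to 886 for RPS3A, a ratio of 559. Their median was 21.6 FPKM, against 6.81 for the 10441 named genes with at least 1 FPKM in both libraries, and 20 of 28 members were above that background median. Of the 28 members, 9 had a mean above 30 FPKM (32.1%), the study's threshold for a bound transcript, against 13.6% of the background and 8.46% of all 16770 named genes. Above 50 FPKM were 6 members, against 6.89% of the background. Above 100 FPKM were 4 (14.3%), against 2.48% of the background, while 9 lay between 10 and 30, and 10 were below 10. The lower and upper quartiles were 6.38 and 42.2 FPKM for the members, against 3.02 and 16.9 for the background. All 28 had at least 1 FPKM in both libraries. Together they made up 1.23% of all FPKM in replicate 1, and 1.22% in replicate 2. Of their own sum, the 4 highest held 78.9% in replicate 1 and 80.0% in replicate 2.

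The 4 highest mRNAs all encode proteins of the body and platform, as do 16 of the 28 members, with low ones such as RPS26 among them. RPS3A, a platform protein near the mRNA exit channel, had 878 FPKM in replicate 1 and 893 in replicate 2, a mean of 886 ± 10.5 (SD, n = 2), and ranked 6 among the background genes. It is encoded on chromosome 4, positions 151099624 to 151104642 of GRCh38, by 6 exons that make a canonical transcript of 869 bases. RPSA, the protein of the platform that is also known as the laminin receptor precursor, had 479 and 480 FPKM, a mean of 479 ± 0.439 (SD, n = 2), on chromosome 3 from 39406716 to 39426255. RPS24, another gene mutated in Diamond-Blackfan anemia, on chromosome 10 from 78033760 to 78056813, had 430.1 and 429.6 FPKM, a mean of 429.9 ± 0.359 (SD, n = 2). By the means RPS3A was 1.85 times RPSA, and both libraries put RPSA and RPS24 close to each other without overlap. RPS2, which lines the mRNA entry channel, followed at 118.2 and 100.9 FPKM, a mean of 109.6 ± 12.2 (SD, n = 2), and RPS24 was 3.92 times as high. The libraries differed more for RPS2 than for the 3 mRNAs above it.

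A second group of 5 mRNAs lay above 30 FPKM and below 100. RPS18, a head protein beside the P site, had 65.9 FPKM in replicate 1 and 64.6 in replicate 2. RPS15, whose protein sits in the head close to the decoding site, had 53.5 and 50.1 FPKM. RPS25, a head protein known for its role in initiation at viral internal entry sites, had 43.9 and 43.7. These 3 are the highest of the head, and none reached the level of the 4 above. RPS4X, encoded on the X chromosome, had 41.2 and 42.1 FPKM. RPS6, the substrate of the S6 kinases downstream of mTORC1, had 39.8 and 31.8. Its libraries are further apart than those of RPS4X, and both are above the threshold.

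Around and below the threshold, several mRNAs could not be ordered. RPS27A, made as a fusion with ubiquitin, had 28.2 FPKM in replicate 1 and 31.5 in replicate 2, a mean of 29.9. RPS27, a zinc-finger protein, had 30.3 and 27.002, a mean of 28.7. Each of these passed 30 FPKM in 1 library and not in the other. RPS7 had 28.3 and 28.1 FPKM and stayed below 30 in both. Between 20 and 25 FPKM on average lay RPS20, at 26.6 and 20.4, RPS23, a protein of the decoding centre, at 22.4 and 21.98, RPS3, at the mRNA entry with a part in DNA repair, at 23.7 and 18.3, and RPS10 at 21.46 and 20.01. The values of these 4 overlap from each to the next, so their order is within the spread of the libraries. RPS16, a head protein whose tail reaches the P site, had 15.5 and 14.4 FPKM, and RPS21 had 12.2 and 11.8.

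The 10 lowest mRNAs all had means below 10 FPKM. RPS9, which RPS2 and RPS3 adjoin at the mRNA entry, had 8.62 FPKM in replicate 1 and 8.16 in replicate 2. FAU, made as a fusion of a ubiquitin-like protein with the ribosomal protein eS30, had 6.70 and 7.74, and RPS13 had 6.86 and 6.07. RPS19, the gene most often mutated in Diamond-Blackfan anemia, had 6.15 and 6.13 FPKM. RPS14, whose single-copy loss underlies the anemia of the 5q- syndrome, had 5.32 and 5.16. These lay near the background median of 6.81 FPKM, and both are head or platform proteins needed to mature the small-subunit rRNA. RPS15A had 8.03 and 3.61 FPKM, the largest ratio between the libraries in the list. RPS12 had 4.42 and 4.05, RPS26 had 4.06 and 4.00, and RPS28 had 3.30 and 3.43. RPS29, the shortest of the members, had 1.79 and 1.38 FPKM, and 8.23% of the background genes were below it.

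Of the 27 pairs of neighbours in this order, 17 had values that did not overlap between the libraries, and 10 overlapped. The overlaps fell in 4 stretches, from RPS27A to RPS7, from RPS20 to RPS10, from FAU to RPS14, and between RPS12 and RPS26. Above RPS27A no neighbours overlapped. With 2 libraries the lack of an overlap is a description, and no test between genes was made.

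Grouped by place in the particle or by conservation, the members had overlapping levels. The 12 head members had a median of 20.9 FPKM, with 3 above 30, and the 16 members of the body and platform had a median of 25.2, with 6 above 30. The ranges overlap, from 1.59 to 65.3 FPKM in the head and from 4.03 to 886 in the body and platform. The 13 members with a bacterial counterpart had a median of 21.0 FPKM, with 4 above 30. The 15 members without one had a median of 28.2, with 5 above 30.

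Related mRNAs outside the list stood at both ends. The mRNA of the scaffold protein RACK1, which sits on the head of the small subunit and is listed under its older symbol GNB2L1, had 254 FPKM in replicate 1 and 249 in replicate 2. RPS27L, a paralog of RPS27 that p53 induces, had 1.556 and 1.505 FPKM, and RPS27 was 18.7 times as high on average.

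The small-subunit list was set beside related lists, as a description without a test. The 47 cytosolic large-subunit mRNAs had a median of 33.6 FPKM, 25 of them (53.2%) above 30, and ran from 3.02 for RPL35A to 395 for RPLP0, the stalk protein. Their 4 highest held 38.9% of their sum in replicate 1 and 40.4% in replicate 2, against 78.9% and 80.0% in the small subunit, where 4 genes are a larger part of the list. The 22 mRNAs of initiation factors that act on the small subunit had a median of 59.1 FPKM, 13 of them (59.1%) above 30, from EIF3M at 3.15 to EIF4G2 at 390. The 19 mRNAs of small-subunit assembly factors had a median of 5.01 FPKM, 3 of them above 30, from UTP3 at 1.35 to TSR1, a factor of late cytoplasmic assembly, at 37.9. The 30 mRNAs of the mitochondrial small subunit had a median of 6.69 FPKM, 4 of them above 30, from MRPS17 at 0.863 to MRPS18B at 42.2. Cytosolic small-subunit mRNAs thus lay above the mitochondrial and assembly lists and below the large-subunit and initiation lists by their medians. Among the regulators of TOP mRNAs, LARP1, which binds the TOP motif and the cap, had 64.4 FPKM, MTOR had 35.6, TIA1 had 26.1, RPTOR had 19.5, EIF4EBP1 had 17.3 and TIAL1 had 12.01. The poly(A)-binding protein PABPC1, itself the product of a TOP mRNA, had 1066. For scale, LRPPRC had 180, GAPDH had 367 and ACTB had 487 FPKM.

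Ribosomal protein genes have many processed pseudogenes, intronless copies whose reads are hard to separate from those of the gene, and their part in these levels was not tested. GENCODE 44 names 467 processed pseudogenes after the 28 members, from 1 for RPS9 to 73 for RPSA, with 53 for RPS3A. As a second measure, every stretch of 50 bases in each coding sequence was searched in GRCh38 outside the gene. The share found elsewhere, without any mismatch, was at least 50% in 14 members. It was 98.9% for RPS3A, 87.6% for RPSA, 78.0% for RPS2 and 41.6% for RPS24. Among these 4 highest, RPS24 is the one with most of its coding sequence unique in the genome. The share was 100% for RPS10, RPS27, RPS26 and RPS28, whose means were 20.7, 28.7, 4.03 and 3.36 FPKM, and it was 1.5% for RPS21 and 2.07% for RPS19, whose means were 11.99 and 6.14 FPKM. High shares, which are not numbers of copies, were thus found among both high and low mRNAs. The 14 members with at least 50% had a median of 29.3 FPKM and the other 14 had a median of 10.2. Spearman's rho of the share and the mean FPKM was 0.21 over the 28 members, and 0.09 over 24 without the 4 highest. The row of RPSAP58, a pseudogene of RPSA named here after its values were seen, had 14.05 FPKM, and RPSA was 34.1 times as high. That single row does not show how much pseudogenes add to the level of RPSA. The readthrough gene RPS10-NUDT3, which shares exons with RPS10 and was also picked after seeing its values, had 4.61 FPKM, and how reads were divided between the 2 rows was not tested.

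Coding length was also set beside the levels, as a description with no test. Spearman's rho of coding length and mean FPKM was 0.55 over the 28 members and 0.46 over 24 without the 4 highest. RPSA, RPS2 and RPS3A have the longest coding sequences, of 885, 879 and 792 bases, and RPS29 and RPS28 have the shortest, of 168 and 207 bases. RPS24 departs from this order with 390 bases and 429.9 FPKM, and RPS3 departs the other way with 729 bases and 21.0 FPKM. With the length of the whole canonical transcript the rho was -0.05 among the members, and it was 0.13 among 10370 background genes. The members' transcripts had a median length of 722.5 bases, against 3561 in the background. Among the 4671 background genes with a transcript of 295 to 3252 bases, the range of the members, 12.3% were above 30 FPKM. FPKM was scaled with the authors' own transcript models, while these lengths are from a later annotation.

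The order below the 4 highest depended on length scaling. With FPKM multiplied by the canonical transcript length in kb, RPS3A, RPSA, RPS24 and RPS2 kept their places at the top. This product approximates the share of fragments only where the canonical transcript matches the authors' models, which was not tested. RPS23, with a canonical 3′ UTR of 2792 bases, moved to 5 from 14 in the order by FPKM, and RPS15A, with one of 1717 bases, moved to 14 from 23. RPS27, with a transcript of 352 bases, moved to 19 from 11. Spearman's rho between the 2 orders was 0.84.

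Small nucleolar RNAs lie within 7 of the 28 genes on the same strand, 14 in all. They include SNORD73A and SNORD73B in RPS3A, SNORA6 and SNORA62 in RPSA, and SNORA10 and SNORA64 in RPS2. Host genes of snoRNAs had a median of 23.5 FPKM, with 3 of 7 above 30, and the other 21 members had a median of 20.7, with 6 above 30. RPS12, host of 3 snoRNAs, was among the lowest at 4.24 FPKM, so hosts were found at both ends.

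The libraries gave nearly the same order of members, with a Spearman's rho of 0.98 over 28 mRNAs, against 0.99 over the background. The coefficient of variation was below 5% for 16 of 28. The share of the background below 5% was not computed, so this count does not set the members against other genes. The median absolute difference of log2(FPKM + 1) was 0.08 for the members, 0.07 for the large subunit and 0.05 for the background. Replicate 1 was higher for 22 of 28 members (78.6%), against 56.2% of the background and 26 of 47 (55.3%) large-subunit mRNAs. The libraries differed by more than 1.2 times for 5 of 28 (17.9%), against 8.42% of the background. These 5 were RPS15A, RPS20, RPS3, RPS29 and RPS6, each higher in replicate 1. RPS15A was the most unequal, 2.23 times as high in replicate 1, and was the single member beyond 1.5 times. RPS15A hence stood at place 20 in replicate 1 and at place 26 in replicate 2.

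**Figure D1:**
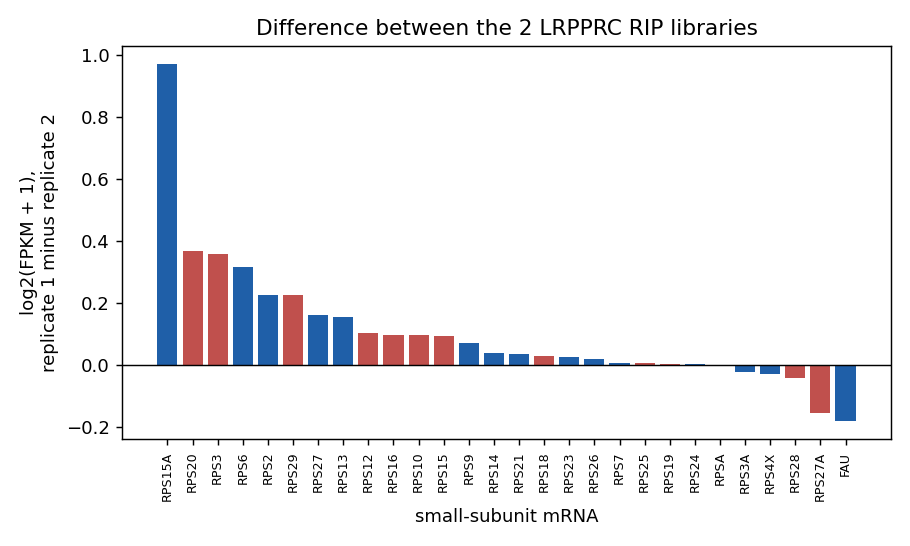
Difference of log2(FPKM + 1) between the libraries, replicate 1 minus replicate 2 (y axis), for each small-subunit mRNA (x axis), in blue for body and platform and in red for head. RPS15A reaches 0.97, every other bar is below 0.4 in size, and 22 of 28 bars are above 0.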

How the data were processed

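LRPPRC RIP of A549 cells gave 2 libraries of 1 condition. The authors trimmed reads (cutadapt 1.18), mapped them (HISAT2 2.1.0, GRCh38) and derived the deposited FPKM values with StringTie 1.3.3b and Ensembl gene models, as the study's methods and the processing notes state. Each replicate has its own column. The table holds 16802 named rows and 4460 rows added by assembly. Depth is unknown, and no interval that needs it was computed.

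For each member the mean and SD over both libraries, its order, and counts above FPKM 30 were computed. The background was the 10441 named genes with at least 1 FPKM in both libraries, counting the higher row of a repeated name. Transcript lengths, pseudogenes and snoRNAs were from GENCODE 44, promoters from RefSeq, and 50-base windows were searched on both strands of GRCh38. The counts and the window search were tested on simulated data. Genes named are all members and, of the lists compared, the highest and lowest members, RACK1, RPS27L and the regulators of TOP mRNAs. Some other genes are not reported here. The member and comparison lists were drawn up by name, with earlier results of these data known. Alternatives were other thresholds, single libraries, TPM, length scaling, pseudocounts and other totals. Computations used Python 3.11.15 with numba 0.67.0, pandas 2.3.3, numpy 2.4.6, matplotlib 3.10.9 and scipy 1.17.1.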

Additional observations from a re-analysis of the deposited data

How the results depend on the processing

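The number of members above the threshold was 9 at FPKM 30, 16 at FPKM 20 (57.1%, against 21.1% of the background) and 6 at FPKM 50. It was 10 with either library alone. Their median was 20.2 to 23.04 FPKM with a single library, 110.2 in TPM, another unit, and 17.9 FPKM without RPS3A, RPSA, RPS24 and RPS2, a choice made after seeing the data. The correlation with the order by FPKM was 0.84 with FPKM multiplied by transcript length and 0.98 with coding length, also chosen after seeing the data. The share of the summed FPKM, on average 1.22%, was 1.25% of named genes and 1.24% without mitochondrially encoded genes, because the total is smaller. No paired analysis was possible because both libraries belong to 1 condition. The unknown depth limits what can be said of low levels such as that of RPS29.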
